A study of Rattus norvegicus with 18 samples.

Results

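Colonies of fetal rat calvaria cells labelled as expressing both osteocalcin and adipsin were set against colonies labelled as expressing osteocalcin, with adipsin not named. The comparison was made gene by gene, on 12 of the 18 arrays of the series. The members are 3 both-marker colonies (both I, both II and both III) and 3 osteocalcin colonies (osteocalcin I, II and III), 6 of the 9 colonies in all, and they were chosen by the submitters' colony labels alone. The other 3 colonies carried neither marker and serve here only to estimate the spread between colonies and to place single values. Every colony grew from 1 cell sorted by flow cytometry, stood for 4 weeks at 37 C in 5% CO2 in alpha-MEM supplemented with ascorbic acid, fetal bovine serum and the additions labelled BGP and Dex, and gave RNA from 100 to 300 cells. All colonies of both types share that culture. The RNA was amplified with a small-sample labelling protocol, and each colony was read once on an RAE230A array (chip A) and once on an RAE230B array (chip B). The age, sex and strain of the fetuses, and whether like colonies stem from different cell preparations, are not given in the sources used here, so the p-values measure the spread between these colonies.

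The calvaria is the flat bone of the skull vault, and its cells include osteoblasts, which build bone matrix, and their stromal progenitors. Osteoblasts and adipocytes can arise from common mesenchymal progenitors, and the glucocorticoid dexamethasone is widely used to favour both fates in culture. Osteocalcin, the product of Bglap, is a bone matrix protein of mature osteoblasts. Adipsin, the product of Cfd, is complement factor D, a serine protease that adipocytes secrete. The comparison asks which other transcripts distinguish a colony with both markers from a colony with the bone marker alone.

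The values are array signals, rescaled so that the mean signal of each array after trimming 2% at each end was 1500, and differences are in log2 units of the signal plus a pseudocount. The chip A array of osteocalcin I had been deposited at a trimmed mean of 64.4, with every other array at 1500, and was the only chip A array hybridized on its day. As a check of sample identity, the 100 probe sets found on both chips were used to match chip A arrays with chip B arrays. For 8 of 9 colonies the chip A array correlated best with its own chip B array. The exception was osteocalcin III, whose chip A array correlated with the chip B array of both III (r = 0.551) more than with its own (r = 0.403). Over the same 100 probe sets the difference between both-marker and osteocalcin colonies had the same sign on both chips for 63, and the median disagreement between chips was 0.301 log2 units.

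The marker transcripts did not separate the colony types by limma's test. Cfd gave signals of 251, 413 and 522 in both-marker colonies, against 195, 246 and 136 in osteocalcin colonies. The 3 both-marker colonies lay above the 3 osteocalcin colonies, by 0.54 log2 units (SE 0.628, adjusted p = 1 by limma), and all 6 signals were under the median of their arrays. With the signals as deposited, relative to the chip's median difference, the Cfd difference was -0.05. That setting kept the pseudocount of 238.8 with the osteocalcin I array unscaled, which lowers its bright signals by more log2 units than its dim ones. The Cfd value of that setting is thus not comparable with 0.54. Bglap gave 20.9, 21.6 and 44.9 in both-marker colonies, against 27.1, 53.4 and 55.9 in osteocalcin colonies, all between the 1.29 and 4.37 percentiles of their arrays. The Bglap transcript was thus close to the dimmest probe sets in both types, and too dim to rank the colonies.

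**Figure D1:**
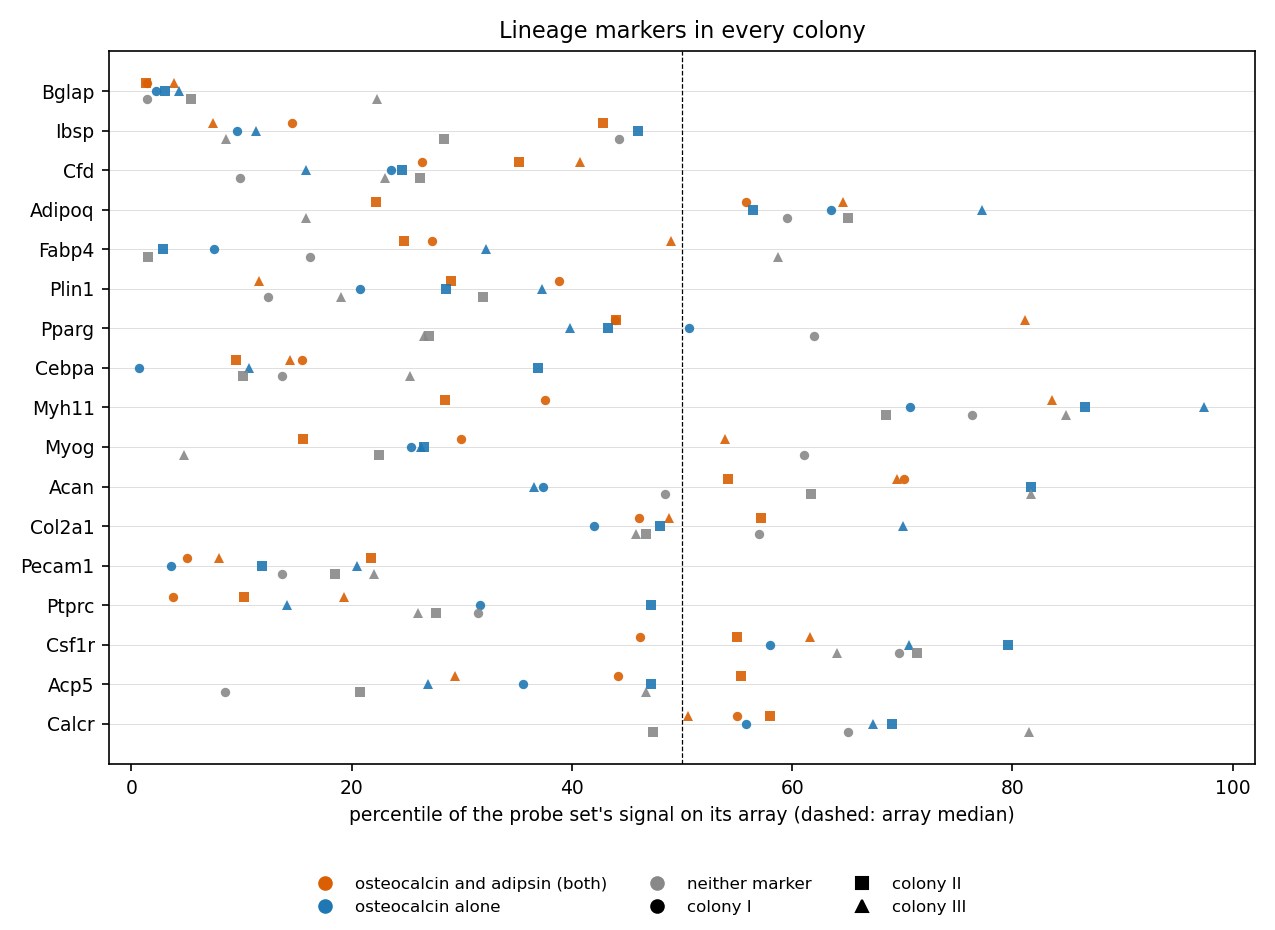
Percentile of the probe set's signal on its own array (horizontal axis, in percent of probe sets; dashed line, the array median) for lineage markers, for every colony of the 3 types. Bglap lies under the 5 percentile in all both-marker and osteocalcin colonies, and both III stands apart from the other both-marker colonies for Pparg and Fabp4.

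The adipocyte markers Plin1 and Adipoq did not follow the label. Fabp4, given below, was higher in both-marker colonies than in osteocalcin I and II, while osteocalcin III overlapped. Plin1, the perilipin of mature fat droplets, gave 470, 302 and 96 in both-marker colonies and 157, 308 and 480 in osteocalcin colonies, and it did not pass the filter on low signals. Adipoq, which encodes the adipocyte hormone adiponectin, gave 1133, 273 and 1591 in both-marker colonies and 1505, 1289 and 2328 in osteocalcin colonies (difference -0.74, SE 0.601, adjusted p = 1 by limma). The lowest value of the 6 belonged to both II. Over the list of adipocyte identity and lipid storage genes, 8 of 20 tested members were higher and 12 lower in both-marker colonies, with a median difference of -0.06, beside -0.01 over all 10080 genes.

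Within the both-marker colonies, both III carried the highest level of several fat-cell transcripts, which are named here after their values were seen. Pparg, the master regulator of adipocyte differentiation, gave 570, 583 and 2205 in both I, II and III, against 682, 633 and 531 in osteocalcin colonies. Plin2, which coats lipid droplets in many cell types, gave 3347, 2279 and 6872, against 2429, 2427 and 2540. Fabp4, a fatty acid carrier of adipocytes that did not pass the filter, gave 264, 233 and 695, against 53.2, 51.8 and 374. Both III was the highest of the 6 colonies for all 3 genes, and for Pparg both I and both II lay within the osteocalcin range. Other fat-cell genes did not follow this. Both III was the lowest of the 6 for Plin1 (96), under osteocalcin III for Adipoq (1591 against 2328) and under osteocalcin II for Cebpa (116 against 480). The neither colony III gave 1322 for Fabp4, above both III.

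Of the other cell types the colonies could hold, some defining markers were dim and others were not. Pecam1 (endothelium) lay between 33.9 and 186, Ptprc (leukocytes) between 34.1 and 726, Myog (skeletal muscle) between 115 and 818 and Acp5 (osteoclasts) between 270 and 886 over the 6 colonies, and none of these passed the filter. Some markers of cartilage and of osteoclasts did pass it. The cartilage proteoglycan gene Acan gave 1450, 851 and 1334 in both-marker colonies and 422, 2327 and 464 in osteocalcin colonies. The cartilage collagen gene Col2a1 gave 614, 943 and 692 in both-marker colonies and 503, 743 and 1406 in osteocalcin colonies. Calcr, the calcitonin receptor of osteoclasts, gave 830, 972 and 731 in both-marker colonies and 818, 1419 and 1287 in osteocalcin colonies. The types overlapped for each of these, and the part of such cells in the differences below was not tested. Csf1r, the macrophage growth factor receptor, gave 615, 870 and 1033 in both-marker colonies and 888, 2119 and 1426 in osteocalcin colonies. Of 9 tested macrophage and osteoclast genes, 2 were higher and 7 lower in both-marker colonies. The types did not overlap for the 2 higher genes and overlapped for the 7 lower ones, beside 4.39% (higher) and 4.99% (lower) of all genes without overlap. The 2 were the lysozyme gene Lyz2, at 799, 1014 and 1164 in both-marker colonies against 752, 787 and 184 in osteocalcin colonies, and the cathepsin gene Ctsk, given with the matrix proteases. Of 7 tested endothelial genes 3 were higher and 4 lower in both-marker colonies. Fewer cells of a type and less RNA per cell cannot be told apart in these whole-colony samples.

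Across the whole transcriptome the distances between colonies did not follow the types. The median absolute log2 difference between both I and both II was 0.342 over 19314 probe sets, the smallest of the pairs among the 6 colonies. Both III differed from both I by 0.556 and from both II by 0.606, and differed less from osteocalcin III (0.451) and osteocalcin II (0.458). Osteocalcin I in turn differed from both I by 0.384, less than from osteocalcin II (0.542) or osteocalcin III (0.478). This held on each chip alone.

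The fluidics stations of the arrays, per the deposited array records, were not balanced over the types. On chip A, both III ran on station 2 and the other 5 arrays on station 1. On chip B the 3 both-marker arrays ran on station 1 and the 3 osteocalcin arrays on station 2, so that station and colony type cannot be told apart there. On chip B, where both III shared its station with both I and both II, it differed from them by 0.609 and 0.643, and from the osteocalcin colonies by 0.554 to 0.558. The chip B array of osteocalcin I likewise differed least from both I (0.458), which ran on the other station.

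Limma called 0 of 19314 probe sets between the types (0.0%), at an adjusted p under 0.05 over both chips. At an unadjusted p under 0.05 it marked 654 (3.39%), of which 347 were higher and 307 lower in both-marker colonies. Over 10080 genes with 1 probe set each, 4970 were higher and 5110 lower. The groups did not overlap for 443 genes in the higher direction (4.39%) and 503 in the lower direction (4.99%). At an unadjusted p under 0.05 there were 173 higher genes (1.72%) and 130 lower genes (1.29%). The median standard error of a difference was 0.497, against a median absolute difference of 0.309.

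Probe sets of 1 gene often disagreed. Of 2400 genes with several kept probe sets, 1200 (50%) had differences of the same sign in all of them. Among the 179 such genes whose groups did not overlap, it was 92 (51.4%). Of the genes described here by the naming rule, 13 had several kept probe sets. In 4 of them (Ube2s, Igf2, Mmp2 and Fkbp5) the probe set not used had the opposite sign, and in 4 others (Col6a3, Nusap1, Pdgfrb and Plin2) its difference was between 0.04 and 0.09.

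Each colony of either type had its own set of distant genes. Of 10080 genes, both I had 150 more than 1 log2 unit above the highest osteocalcin colony, both II had 297 and both III had 98. In turn, osteocalcin I, II and III had 64, 131 and 109 genes more than 1 log2 unit above the highest both-marker colony. Of the genes above the osteocalcin colonies, both I and both II shared 100, which is most of the set of both I. Both I and both III shared 17, and both II and both III shared 23. In the opposite direction, 152, 271 and 233 genes of both I, II and III lay more than 1 unit below the lowest osteocalcin colony, and the pairs shared 42, 28 and 31. Only 10 genes above and 9 below were shared by all 3 colonies.

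**Figure D2:**
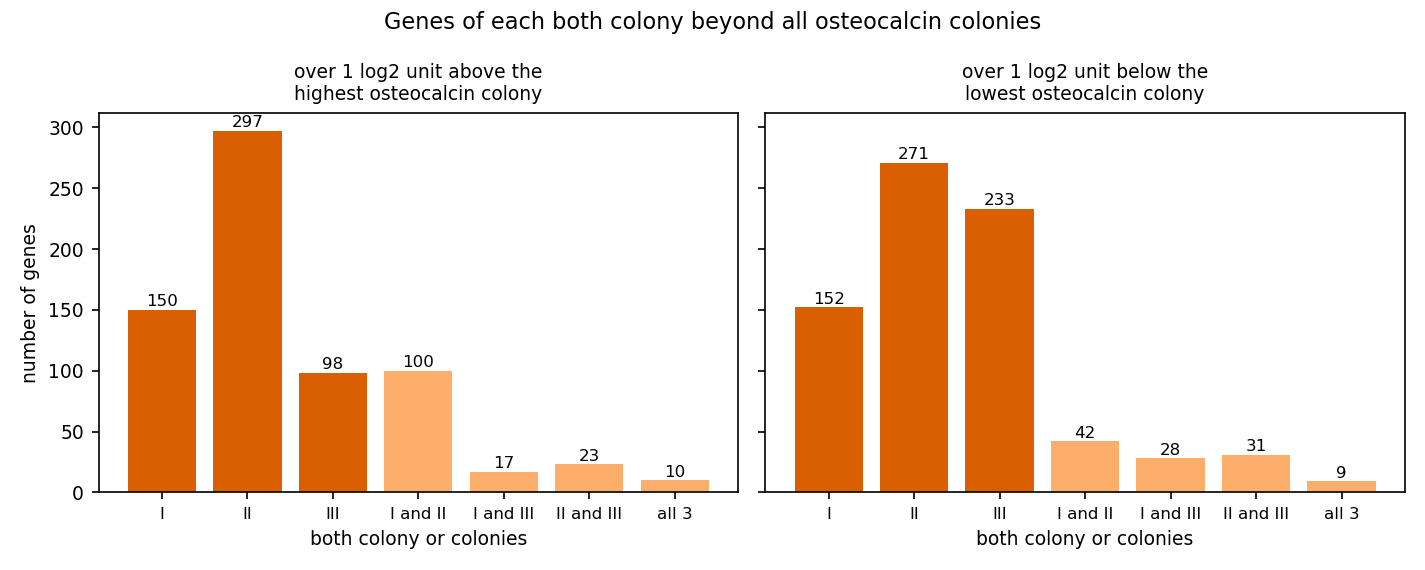
Number of genes (vertical axis) that lay more than 1 log2 unit above the highest (left) or below the lowest (right) of the 3 osteocalcin colonies, for both I, II and III alone, in pairs and in all 3. Both I and both II shared 100 genes above, and all 3 both-marker colonies shared 10.

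The 15 genes with the widest gap above the osteocalcin colonies were led by Ackr4, an atypical receptor that takes up the chemokines CCL19 and CCL21 without signalling through G proteins. Ackr4 gave signals of 10639, 13451 and 10260 in both-marker colonies, against 333, 2371 and 176 in osteocalcin colonies. The lowest both-marker colony was 1.97 log2 units above the highest osteocalcin colony, and the neither colonies (1440, 737 and 327) stood with the osteocalcin colonies. The log2 level averaged 13.51 ± 0.206 (SD, n = 3) in both-marker colonies, against 9.93 ± 1.29 (SD, n = 3) in osteocalcin colonies, and the types differed by 3.59 (SE 0.576, adjusted p = 0.0804 by limma, the smallest of all probe sets). Ackr4 was read on chip B, where station and type cannot be told apart. A probe set of that chip with no gene symbol had the same adjusted p, at 5479, 7482 and 5185 against 396, 333 and 260.

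Gda, guanine deaminase, which turns guanine into xanthine, gave 21295, 33162 and 23886 in both-marker colonies, against 3499, 8305 and 1609 in osteocalcin colonies. A second Gda probe set gave 3001, 5531 and 5712, against 792, 654 and 324. All 3 both-marker colonies were high by both probe sets, and the difference was 2.73 (SE 0.557, adjusted p = 1 by limma). Xdh, which oxidises xanthine to uric acid and is the next enzyme of the pathway, gave 6414, 15246 and 1298, against 563, 2039 and 939. There both III lay within the osteocalcin range. The other 7 tested members of the purine list had differences between -0.56 and 0.07.

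Acad11, an acyl-CoA dehydrogenase of fatty acid breakdown, gave 7933, 6044 and 8042 in both-marker colonies, against 313, 2287 and 890 in osteocalcin colonies (difference 2.58, SE 0.509, adjusted p = 0.587 by limma). The groups stood apart, as the choice of genes requires. Of 19 tested fatty acid oxidation and ketone genes 11 were higher and 8 lower, with a median difference of 0.07. The groups did not overlap for 3 in the higher direction and 1 in the lower direction, beside 4.39% and 4.99% of all genes. Hadh, a dehydrogenase of mitochondrial beta-oxidation, gave 2192, 2546 and 2392, against 1646, 2147 and 1994 (difference 0.28). Ech1, an isomerase that handles unsaturated fatty acids, gave 3309, 3073 and 3743, against 2288, 2870 and 2387 (difference 0.39). Both were above by far less than Acad11. The mitochondrial dehydrogenase Acadl had a difference of -0.53, at 2698, 2712 and 4532 against 4185, 4912 and 5204. Ucp2, an uncoupling protein of the mitochondrial inner membrane, gave 766, 139 and 241, against 1178, 1247 and 2410 (difference -1.64, SE 0.521, adjusted p = 1 by limma).

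Other genes of the higher set had varied functions. Slc16a7, a monocarboxylate transporter, gave 1144, 1587 and 1462 in both-marker colonies, against 377, 250 and 83.3 in osteocalcin colonies. Gsdmd, which forms membrane pores in pyroptosis, gave 3038, 2369 and 3871, against 877, 526 and 455. Ppfibp2, a liprin of cell adhesion sites, gave 986, 1369 and 1199, against 152, 268 and 246. The separation of the types follows from the choice of genes, and the neither colonies reached the both-marker level of Ppfibp2 (1055, 1279 and 1079). Slc16a7, and Dennd4b named next, passed the filter on low signals only through the both-marker colonies. Herc1, Igflr1, Dennd4b, Ube2s, Fam227a, Cog3 and Brf1 completed this set, with differences of 1.27 to 1.72. A second Ube2s probe set had a difference of -0.83, with overlap of the types.

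Among the 15 genes with the widest gap in the lower direction was Cd200, a surface glycoprotein that restrains myeloid cells and is carried by stromal progenitors. Cd200 gave 259, 303 and 872 in both-marker colonies, against 2004, 1859 and 2801 in osteocalcin colonies (difference -1.86, SE 0.429, adjusted p = 1 by limma). Septin4, a cytoskeletal GTPase, gave 1655, 854 and 971, against 4507, 3969 and 6032. Lrrc8c, a subunit of volume-regulated anion channels, gave 2332, 2521 and 1938, against 7295, 6719 and 10538. In these 3 genes every both-marker colony lay well below every osteocalcin colony, as the choice of genes requires.

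Hoxd3, a homeobox transcription factor of axial patterning, gave 135, 42.7 and 157 in both-marker colonies, against 853, 1070 and 982 in osteocalcin colonies, and the 3 neither colonies stood near or above the osteocalcin colonies (1317, 818 and 1281). Slc51a, a subunit of an organic solute transporter, gave 856, 1172 and 1081, against 2986, 3139 and 5337. Dnm2, a dynamin of endocytosis, gave 310, 238 and 375, against 1548, 919 and 1144. The set also held Zan, Pinlyp, Jakmip1, Gpr45, Fads2b, Ltk, Cacna1e, Iffo2 and Adgre1, with differences between -1.86 and -1.07. Of the 30 genes of the 2 sets, 19 were read on chip B, which holds 2992 of the 10080 genes, and chip B is where station and type coincide. Ackr4 and Acad11 were among the 19. Chip B also read, among others, Adipoq, Ccl7, Ccl21, Saa3, Isg15, RT1-A2, Efemp2, Lef1, Nusap1, Prc1 and Gmnn. With the station as a block, which rests there on the neither colonies, the difference of Gsdmd was -0.72, that of Lrrc8c 0.03 and that of Ltk 0.04.

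**Figure D3:**
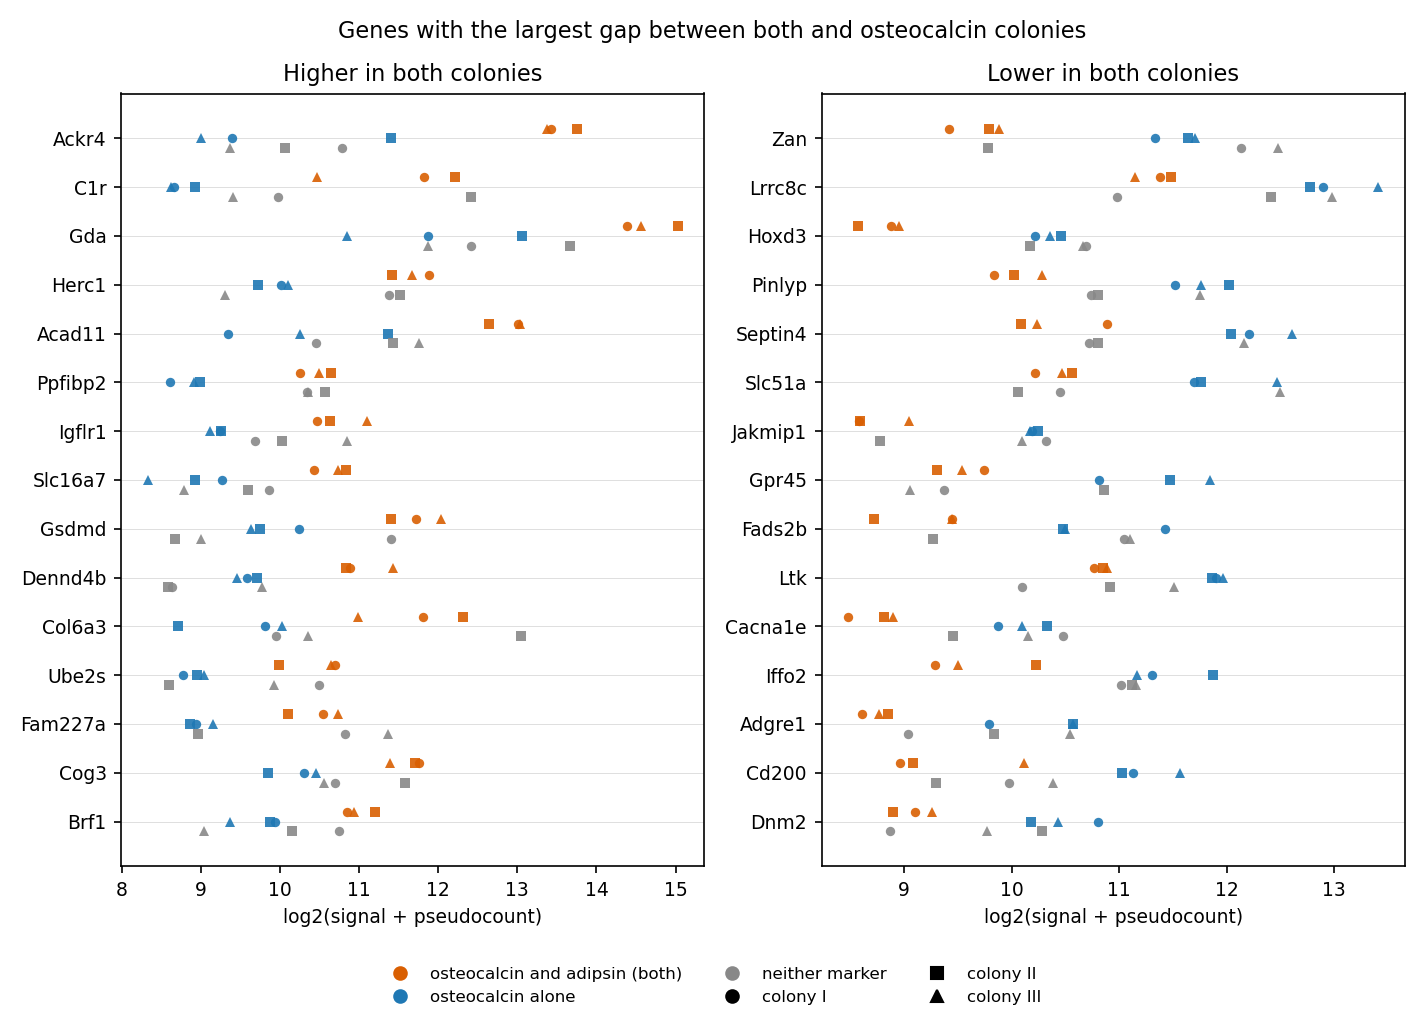
Log2 level, log2(signal + pseudocount), of the 15 genes with the widest gap above (left) and below (right) the osteocalcin colonies, for each colony of the 3 types. The 3 both-marker points lie apart from the 3 osteocalcin points in every row, as the choice of genes requires; the neither colonies fall on both sides.

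Chemokines and complement components, the soluble proteins that recruit leukocytes and mark surfaces for clearance, held several of the widest differences. Of 17 tested chemokine genes and receptors 11 were higher and 6 lower, with a median difference of 0.45, and 1 in each direction reached an unadjusted p under 0.05, beside 1.72% (higher) and 1.29% (lower) of all genes. The median was 0.29 without osteocalcin I. The mean log2 level of the list was 10.98, 10.87 and 11.01 in both-marker colonies, against 10.60, 10.65 and 10.52 in osteocalcin colonies. Ccl21, a ligand that ACKR4 takes up, gave 161, 130 and 1192 in both-marker colonies, against 2004, 2341 and 3179 in osteocalcin colonies (difference -1.99, SE 0.574, adjusted p = 1 by limma). Ackr4 and Ccl21 thus lay on opposite sides, with no overlap of the types for either. Both were read on chip B, where station and type cannot be told apart. Ccl7, a monocyte attractant, gave 12496, 5267 and 15789, against 32759, 31041 and 12495, and osteocalcin III overlapped the both-marker colonies. Cxcl3, a neutrophil attractant, gave 495, 394 and 853, against 148, 304 and 134.

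The complement and innate recognition list had the highest median of the 28 lists, at 1.69, with 9 of 12 tested members higher. Of these, 6 reached an unadjusted p under 0.05, beside 1.72% of all genes. The lists were chosen with earlier results of these data known, so the rank and the count describe these colonies and are not a test. C1r, a protease of the first complement complex, gave 3388, 4484 and 1183 in both-marker colonies, against 165, 247 and 154 in osteocalcin colonies (difference 2.77, SE 0.671, adjusted p = 1 by limma). Its partner C1s gave 19977, 30418 and 1067, against 1008, 1261 and 204. Serping1, which encodes the inhibitor of both proteases, gave 1866, 3479 and 182, against 64.7, 91.5 and 156. In all 3 genes both I and both II were many-fold above the osteocalcin colonies, and both III was above them for C1r, barely above them for Serping1 and within their range for C1s. The neither colonies gave 765, 5199 and 441 for C1r and 226, 1283 and 194 for Serping1, all above every osteocalcin colony. For C1s they gave 1201, 26945 and 1053. For C1r and Serping1 the higher level was thus not particular to both-marker colonies.

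The central component C3 gave 9308, 25398 and 688 in both-marker colonies, against 769, 1037 and 700 in osteocalcin colonies. C2, read on chip B where both III shared its station with both I and both II, gave 10469, 56053 and 3286, against 3919, 3381 and 2896. Pla2g2a, a secreted phospholipase that attacks bacterial membranes, gave 36330, 21794 and 39.5, against 107, 66 and 52.7. For each of these the value of both III lay with or below the osteocalcin colonies. The neither colonies gave 1236, 9371 and 1943 for C3 and 66.5, 3215 and 153 for Pla2g2a. Among the members that were lower, Saa3, an acute phase protein, gave 1138, 1160 and 1429, against 2462, 2122 and 2450 (difference -0.77), and C1qtnf3, a secreted relative of C1q, had the lowest difference (-1.35), with overlap. Without overlap there were 2 higher members (C1r and Serping1) and 1 lower (Saa3), beside 4.39% and 4.99% of all genes. The list median was 2.75 without both III and 0.89 without both II. It was 0.06 under a stricter filter, with signals above the array median on at least 6 of 9 arrays, which left out 5 of the 12 members, among them C1r, Serping1 and Pla2g2a, whose signals were high in few colonies.

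For genes of antigen presentation and the interferon response, all 3 both-marker colonies stood above the osteocalcin colonies in the mean over the list. The mean log2 level was 11.39, 11.42 and 11.32 in both-marker colonies, against 10.71, 11.22 and 10.99 in osteocalcin colonies. Of 24 tested members 18 were higher, with a median difference of 0.27 (0.49 without osteocalcin II). The groups did not overlap for 5 members in the higher direction and 1 in the lower direction, beside 4.39% and 4.99% of all genes. Ifitm3, an interferon-induced membrane protein, gave 19770, 25376 and 20418, against 8882, 13073 and 9872. Psmb8, a catalytic subunit of the immunoproteasome, gave 1484, 1782 and 1744, against 798, 264 and 620. In both genes the 3 both-marker colonies lay close together and above every osteocalcin colony.

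Isg15, a ubiquitin-like protein induced by interferon, gave 4000, 2976 and 1385 in both-marker colonies, against 217, 723 and 703 in osteocalcin colonies. Irf7, a transcription factor that amplifies the interferon response, gave 1337, 2439 and 1104, against 684, 1002 and 893. None of these passed the adjusted test (adjusted p = 1 for each by limma). Class I genes went both ways, with RT1-CE16 at 3004, 3900 and 1828 against 334, 762 and 1271, and RT1-A2 at 3237, 2829 and 5569 against 5933, 7386 and 7664. Their near-identical relatives can share a probe set, so the assignment of these signals to single class I genes is uncertain. Bst2, Irf9 and Usp18, which interferon also induces, had differences of -0.47, -0.40 and -0.33.

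The promoters of this list are shown for the 3 members whose groups did not overlap and whose window holds the motif. A promoter window ran from 250 bases before to 50 bases after the start of the gene (RefSeq, build GRCr8). The motif searched, on both strands, was GAAA followed after any 2 bases by a second GAAA, the core shared by interferon-response elements and interferon regulatory factor sites. It occurs in 11 of the 19 tested members with a window (57.9%), against 1034 of 27457 windows in all (3.77%). The matches are in capitals in the sequences below, and a match on the opposite strand shows the letters TTTC in place of GAAA.
Ifitm3, chr1:205541709-205542008, minus strand, match 44 bases before the start: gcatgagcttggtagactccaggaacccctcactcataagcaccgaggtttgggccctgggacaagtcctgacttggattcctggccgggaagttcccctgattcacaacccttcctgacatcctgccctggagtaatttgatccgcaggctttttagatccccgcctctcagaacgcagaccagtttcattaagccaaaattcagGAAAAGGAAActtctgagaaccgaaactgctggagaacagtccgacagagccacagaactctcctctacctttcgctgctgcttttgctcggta
Irf7, chr1:205799974-205800273, minus strand, match 69 bases before the start: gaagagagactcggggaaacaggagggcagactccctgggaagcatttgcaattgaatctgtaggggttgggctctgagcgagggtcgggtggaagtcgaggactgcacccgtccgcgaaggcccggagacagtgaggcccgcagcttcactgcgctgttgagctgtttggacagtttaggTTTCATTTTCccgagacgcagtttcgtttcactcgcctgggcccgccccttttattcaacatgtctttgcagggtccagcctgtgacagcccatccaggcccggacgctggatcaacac
Psmb8, chr20:4656982-4657281, minus strand, match 4 bases before the start: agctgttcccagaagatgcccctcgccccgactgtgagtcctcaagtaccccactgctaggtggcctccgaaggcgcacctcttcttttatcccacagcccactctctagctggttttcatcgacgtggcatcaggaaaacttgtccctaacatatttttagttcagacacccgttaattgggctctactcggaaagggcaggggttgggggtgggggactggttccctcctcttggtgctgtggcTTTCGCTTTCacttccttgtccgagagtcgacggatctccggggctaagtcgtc
The motif also lies in the windows of members that were lower or near 0, such as Bst2 (difference -0.47) and Tapbp (-0.14). It is a match of letters in these windows and was not tested as a site.

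**Figure D4:**
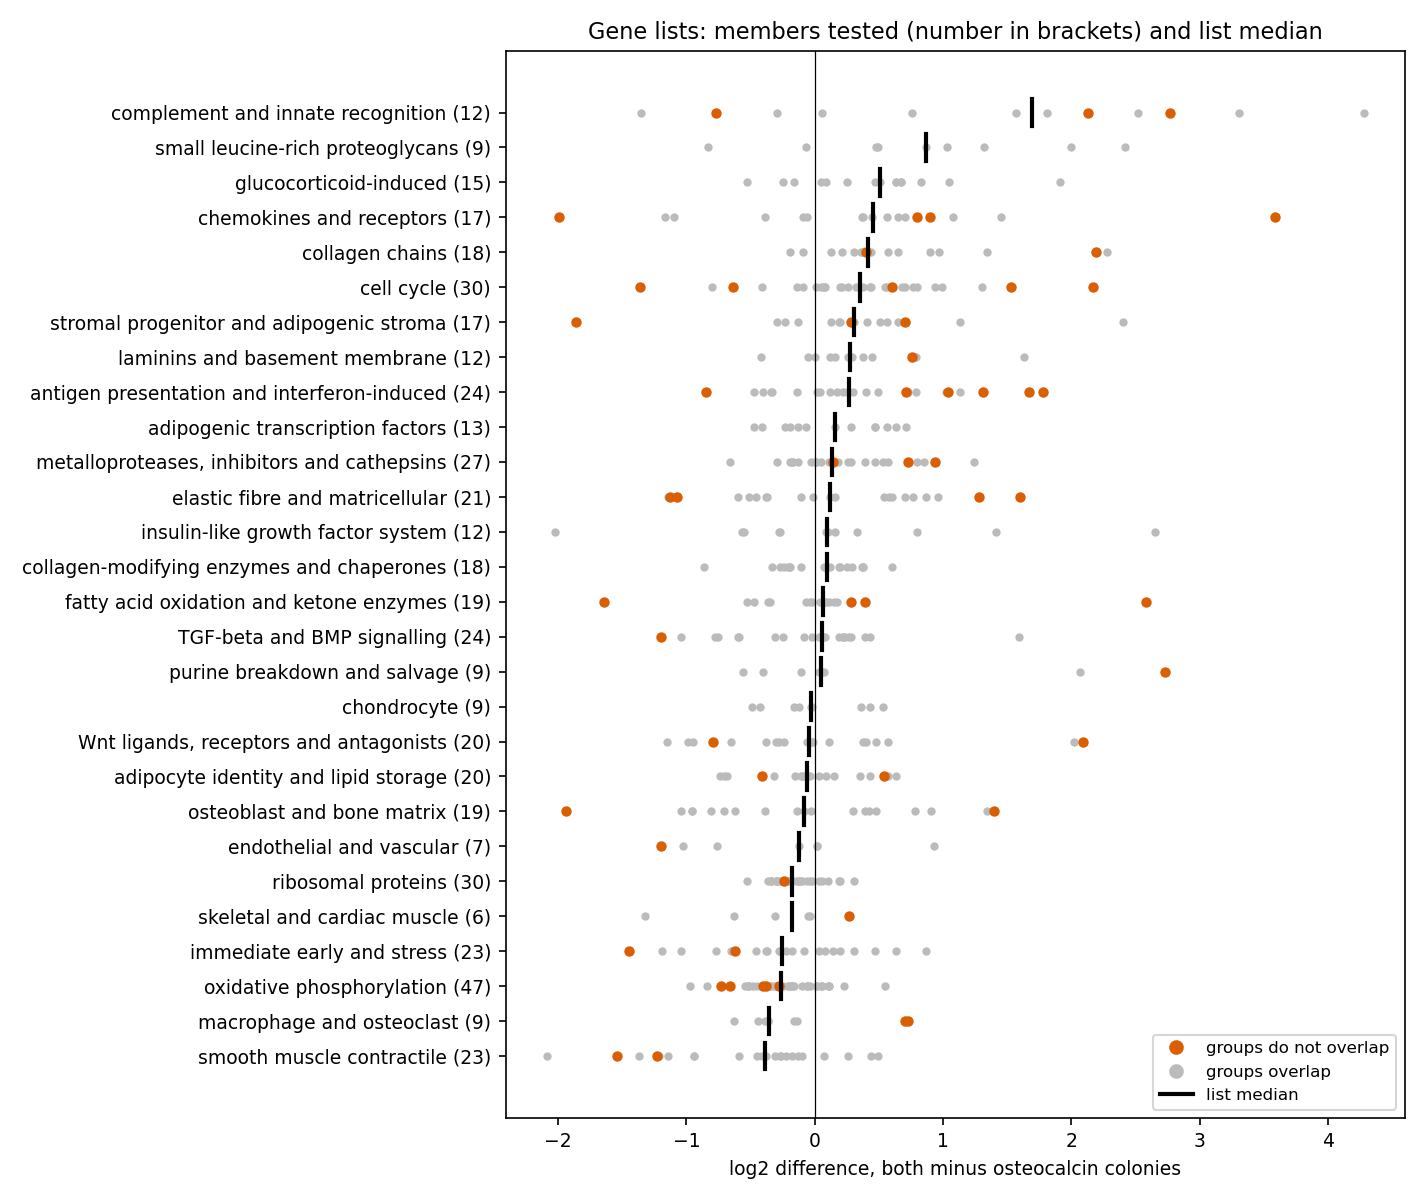
Log2 difference, both-marker minus osteocalcin colonies (horizontal axis), of every tested member of the 28 gene lists, ordered by list median (black bars), with orange points where the 3 colonies of each type do not overlap. Complement and small leucine-rich proteoglycans have the highest medians (1.69 and 0.87) and smooth muscle the lowest (-0.38). The lists were chosen with earlier results of these data known. The oxidative phosphorylation and ribosomal medians (-0.26 and -0.18) turn positive with the signals as deposited. There the chip A array of osteocalcin I is unscaled at an unchanged pseudocount.

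In the type means, proteoglycan and collagen genes were mostly higher in both-marker colonies. In the mean over each list, both I and both II lay above every osteocalcin colony and both III did not. For single matrix genes, both III lay above the osteocalcin colonies in some and not in others. Small leucine-rich proteoglycans, which bind collagen fibrils and growth factors, were higher in 7 of 9 tested members (median 0.87, with 0.02 without both II and 1.69 without both III). The types overlapped for all 9. Their mean log2 level was 12.74, 13.61 and 10.37 in both-marker colonies, against 11.33, 11.65 and 11.17 in osteocalcin colonies, so that both III was the lowest. Dcn (decorin) gave 12183, 13949 and 652 in both-marker colonies, against 591, 1200 and 618 in osteocalcin colonies. Fmod (fibromodulin) gave 19238, 27160 and 841, against 2159, 1308 and 2174. Both I and both II were far above the osteocalcin colonies, and both III lay within their range for Dcn and below it for Fmod. Bgn (biglycan) gave 19484, 14542 and 9953, against 6220, 10781 and 6657.

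Of 18 tested collagen chains 16 were higher and 2 lower, with a median difference of 0.41. Their mean log2 level was 13.69, 13.77 and 12.03 in both-marker colonies, against 12.85, 12.02 and 12.68 in osteocalcin colonies. The median was 1.03 without both III, 0.24 without both I, 0.65 without osteocalcin I and 0.23 without osteocalcin II. Col6a3, a chain of the microfibril-forming collagen VI, gave 3354, 4839 and 1792 in both-marker colonies, against 659, 180 and 798 in osteocalcin colonies (difference 2.19, SE 0.691, adjusted p = 1 by limma). Both III was above all osteocalcin colonies by this probe set. A second Col6a3 probe set had a difference of 0.04, with overlap of the types. Col14a1, a collagen of fibril surfaces, gave 4139, 38889 and 491, against 1617, 205 and 1097, where both II was far above every other colony (difference 2.28). The enzymes that modify collagen were split, 10 higher and 8 lower of 18, with a median of 0.09.

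Laminins, the scaffold proteins of basement membranes, were higher in 9 of 12 tested members (median 0.28, and 0.12 without both II). Lamc1 gave 8369, 7210 and 7959 in both-marker colonies, against 4486, 4598 and 4523 in osteocalcin colonies, with narrow ranges in both types. The difference was 0.76 (SE 0.316, adjusted p = 1 by limma). Efemp2, a fibulin needed for elastic fibre assembly, gave 24864, 28958 and 28024, against 11791, 20838 and 5340.

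Elastic fibre and matricellular genes were split, 11 higher and 10 lower of 21 tested, with a median of 0.12 (0.41 without both III and -0.10 without both II). The CCN family of matricellular proteins went both ways. Ccn5 gave 17792, 20748 and 13961 in both-marker colonies, against 3052, 8723 and 6234 in osteocalcin colonies (difference 1.60, SE 0.387, adjusted p = 1 by limma). Ccn3 gave 6283, 2627 and 4452, against 6710, 12731 and 9904, a difference of -1.13. Neither pair of groups overlapped. Tgfbi, a matrix protein induced by TGF-beta, was also lower, at 1032, 1138 and 873 against 1621, 2649 and 3141. Among matrix proteases, Mmp2, the gelatinase of stromal cells, gave 24228, 28432 and 16740, against 15621, 8813 and 11624, while a second Mmp2 probe set had a difference of -0.22, with overlap. The collagen-degrading cathepsin Ctsk gave 19892, 26226 and 12856, against 9706, 12719 and 11651.

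Genes of stromal progenitors were higher in 13 of 17 tested members (median 0.31, and 0.47 without both III). Pdgfra, a growth factor receptor that marks mesenchymal progenitors, gave 5194, 6105 and 279 in both-marker colonies, against 1042, 60 and 80.8 in osteocalcin colonies. Both III lay within the osteocalcin range. Its relative Pdgfrb gave 2243, 2248 and 2615, against 916, 1977 and 1369, with all 3 both-marker colonies above (difference 0.70, SE 0.381, adjusted p = 1 by limma). A second Pdgfrb probe set had a difference of 0.07, with overlap of the types.

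Among growth factor genes, Igf2, a fetal growth factor, gave 5922, 31020 and 1027 in both-marker colonies, against 289, 1237 and 1019 in osteocalcin colonies (difference 2.65). A second Igf2 probe set had a difference of -1.07, so the direction for this gene depends on the probe set. Igfbp2, which binds insulin-like growth factors outside the cell, gave 29351, 6173 and 2024, against 18720, 36029 and 41834. By the first probe set Igf2 was high in both I and both II, whereas Igfbp2 was low in both II and both III. Neither type was uniform for these genes, and of the 12 tested genes of the insulin-like growth factor system 7 were higher and 5 lower.

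In the Wnt pathway, Sfrp2, a secreted Wnt modulator, gave 928, 14847 and 1075 in both-marker colonies, against 831, 431 and 180 in osteocalcin colonies, so that both II carried most of the difference of 2.09 (SE 0.796, adjusted p = 1 by limma). Lef1, a transcription factor through which beta-catenin acts, gave 1021, 1450 and 1243, against 1905, 3587 and 1893. Id1, an inhibitor of differentiation factors and a target of BMP signalling, gave 5826, 4360 and 11251, against 12624, 21497 and 13742 (difference -1.20, SE 0.402, adjusted p = 1 by limma). The types did not overlap for Lef1 or Id1. Over the lists, 7 of 20 Wnt genes and 14 of 24 TGF-beta and BMP genes were higher, with medians of -0.05 and 0.05. The medians of the adipocyte, fatty acid oxidation, collagen-modifying and TGF-beta and BMP lists, all close to 0, changed sign with 1 colony left out.

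Bone genes were divided. Of 19 tested osteoblast and bone matrix genes 8 were higher and 11 lower in both-marker colonies, with a median of -0.08. Enpp1, which produces pyrophosphate, an inhibitor of mineral growth, gave 3126, 55.8 and 1564 in both-marker colonies, against 4133, 5696 and 3679 in osteocalcin colonies (difference -1.94, SE 0.752, adjusted p = 1 by limma). Kazald1, a secreted protein of the insulin-like growth factor binding protein superfamily, gave 2980, 4108 and 3683, against 1050, 1482 and 1102 (difference 1.40, SE 0.329, adjusted p = 1 by limma). These were the 2 list members whose types did not overlap, 1 in each direction of 19, beside 4.39% (higher) and 4.99% (lower) of all genes. The bone sialoprotein gene Ibsp gave 100, 559 and 66.5, against 65.3, 695 and 101, and did not pass the filter.

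Smooth muscle contractile genes were lower in 19 of 23 tested members, with a median difference of -0.38 (-0.16 without both II and -0.54 without both III). Their summed signal was 315497, 137584 and 396325 in both-marker colonies, against 326729, 305073 and 625519 in osteocalcin colonies. Cnn1 (calponin) gave 3749, 937 and 4011, against 5630, 4696 and 16665. Sorbs2, a scaffold of actin stress fibres, gave 1315, 735 and 1125, against 2522, 2811 and 2913 (difference -1.23, SE 0.311, adjusted p = 1 by limma). The smooth muscle myosin Myh11 gave 445, 294 and 2531, against 1420, 3064 and 14048, where osteocalcin III was far above the rest. Both II was the lowest colony for Cnn1, Sorbs2 and Myh11.

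Mitochondrial and ribosomal genes showed small differences, and in the mean over each list both III lay above both I and both II. Of 47 tested subunits of the respiratory chain and ATP synthase 37 were lower in both-marker colonies, with a median of -0.26, which became 0.17 with the signals as deposited, -0.04 without both II and -0.53 without both III. Their mean log2 level was 12.95, 12.76 and 13.62 in both-marker colonies, against 13.23, 13.44 and 13.41 in osteocalcin colonies, so that both III was the highest of the 6. The types did not overlap for 5 of the 47, all in the lower direction, beside 4.99% of all genes. In these, both III too lay below every osteocalcin colony. Ndufa1, a subunit of complex I and 1 of the 5, gave 39976, 39978 and 48320, against 67171, 74298 and 70427. Of 30 ribosomal protein genes 24 were lower, with a median of -0.18, which became 0.41 with the signals as deposited. It was -0.02 without both II, -0.34 without both III, -0.33 without osteocalcin I and 0.00 without osteocalcin II. As deposited, the chip A array of osteocalcin I was unscaled at an unchanged pseudocount, which lowers bright genes such as these more than dim ones.

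Cell cycle genes were higher in 24 of 30 tested members (median 0.35, and 0.03 without both II). Nusap1, a spindle protein, gave 3146, 4327 and 3554 in both-marker colonies, against 346, 798 and 3075 in osteocalcin colonies. A second Nusap1 probe set had a difference of 0.06, with overlap of the types. Prc1, which bundles the microtubules of the dividing cell, gave 3982, 9558 and 526, against 363, 401 and 455. Both III was the lowest both-marker colony for Prc1 and close to the osteocalcin colonies. Gmnn (geminin), which blocks repeated DNA replication, lay on the other side, at 225, 1125 and 148 against 1412, 1768 and 1501. The mean log2 level of the list was 10.79, 11.33 and 10.32 in both-marker colonies, against 10.37, 10.55 and 10.44 in osteocalcin colonies.

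Glucocorticoid-induced genes, which respond to dexamethasone, were higher in 12 of 15 tested members (median 0.51), and the types overlapped for all 15, beside 4.39% (higher) and 4.99% (lower) of all genes without overlap. The metallothionein Mt2A gave 36318, 28133 and 17048 in both-marker colonies, against 4396, 19483 and 3440 in osteocalcin colonies. Fkbp5, a chaperone of the glucocorticoid receptor, gave 1181, 1978 and 1548, against 582, 1703 and 395, while its second probe set had a difference of -0.09. Osteocalcin II was the high osteocalcin colony in both genes and overlapped the both-marker colonies by the probe sets given. Among stress and immediate early genes 15 of 23 were lower (median -0.26, and -0.08 without both II), with Ier3 at 15086, 1912 and 14554 against 21784, 18653 and 23875.

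The 5 colonies of station 1 on chip A allow a fit in which both III takes no part. With both I and both II against the 3 osteocalcin colonies, limma called 38 of 9427 probe sets (0.403%) at an adjusted p under 0.05, 34 higher and 4 lower, and 34 of the 38 carry a gene symbol. Besides the complement and matrix genes above, the higher calls held Tspan8, a tetraspanin, at 6906 and 20622 in both I and both II against 406, 1015 and 205 in osteocalcin colonies (difference 4.10, SE 0.522, adjusted p = 0.0148 by limma). Lgr5, a receptor for R-spondins that marks stem cells in several tissues, gave 4900 and 14184, against 658, 300 and 775 (difference 3.45, SE 0.457, adjusted p = 0.0188 by limma). Gja1, the gap junction protein connexin 43, gave 36348 and 50516, against 12196, 8837 and 9754. The lower calls were Cd200, Akip1, Scarb2 and S100a10.

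Both III, which that fit did not use, did not share most of these differences. Of the 34 higher probe sets, both III lay above all 3 osteocalcin colonies in 5 (14.7%), beside 23.6% of all 9427 probe sets. It lay below all 3 in 16 of the 34, beside 22.2% of all probe sets. The 5 were C1r, Serping1, Gda, Col6a3 and Il6st, the shared receptor subunit of the interleukin 6 family. Both III gave 20.6 for Tspan8, 205 for Lgr5 and 4052 for Gja1, each lower than any osteocalcin colony. The neither colony II, also outside the fit, lay above all 3 osteocalcin colonies in 28 of the 34 (82.4%), beside 33.3% of all probe sets. It gave 8567 for Tspan8, 3689 for Lgr5 and 65423 for Gja1. The neither colonies I and III lay above in 12 (35.3%) and 14 (41.2%) of the 34, beside 30.8% and 33.6% of all probe sets. For the 4 lower probe sets, both III lay below all osteocalcin colonies in 3, beside 22.2% of all probe sets. The neither colonies I, II and III lay below in 4, 4 and 3 of them, beside 25.6%, 25.9% and 36.1% of all probe sets. The lower level was thus not particular to both-marker colonies. On chip A, both III and the neither colonies ran on station 2.

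**Figure D5:**
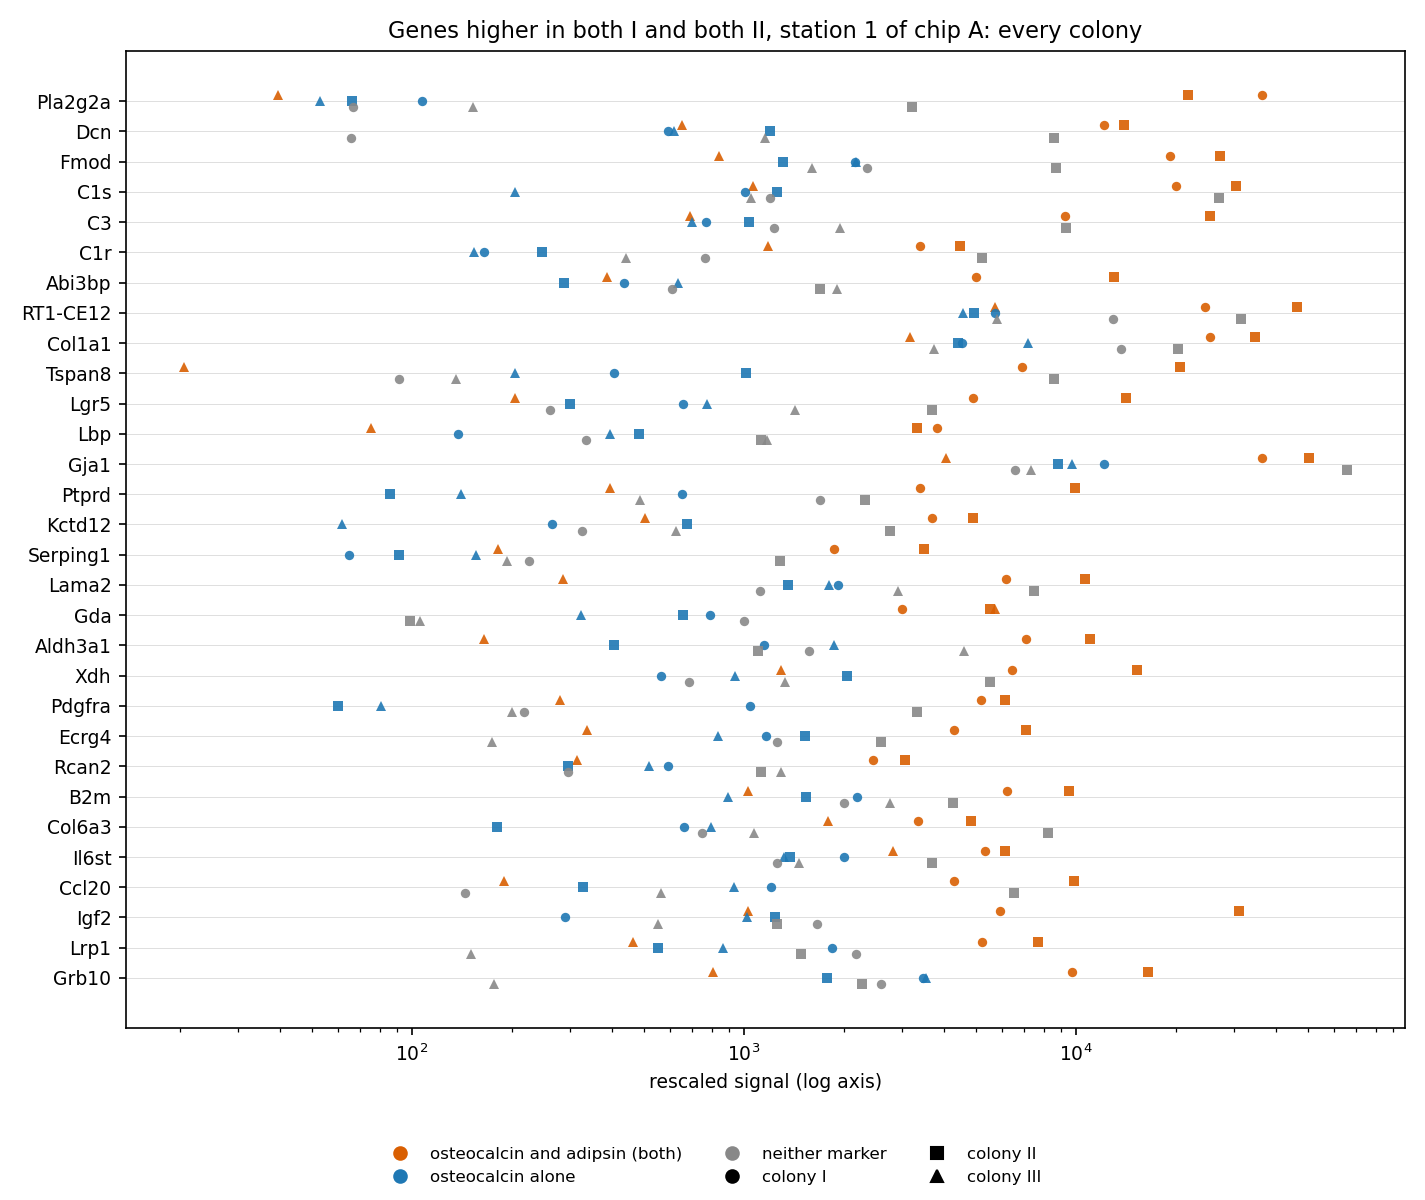
Rescaled signal (log axis) of the genes called higher in both I and both II against the osteocalcin colonies on station 1 of chip A, for each colony of the 3 types. Both I and both II are high by the choice of genes. Both III (orange triangles) lies above all osteocalcin colonies in 5 of the 34 probe sets called higher, and neither II (grey squares) in 28. Neither I lies above them in 12 and neither III in 14.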

How the data were processed

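Signal intensities were deposited on a linear scale with 1 value per probe set, produced with MAS5 per the submitters' processing notes, whose version the sources used here do not give. Fluidics stations were read from the deposited array records. Each array was rescaled to a 2%-trimmed mean of 1500 and taken as log2(signal + pseudocount), with a pseudocount of 238.8 on chip A and 336.2 on chip B (the median over 9 arrays of the 25th percentile), which understates differences of dim genes. Probe sets above the array median on at least 3 of 9 arrays were kept, with Bglap and Cfd exempt, which left 9427 and 9887. A two-sided limma 3.58.1 fit (R 4.3.3) was made per chip with 3 type means over 9 colonies, 6 residual degrees of freedom and variances moderated along an intensity trend. Benjamini-Hochberg adjustment ran over both chips. The steps were tested on simulated data.

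Gene symbols came from the platform annotation; 12789 probe sets of chip A and 7570 of chip B had 1 symbol, 312 and 100 had several, and 2822 and 7663 had none. A gene was read from 1 probe set, chip A before chip B and then the brightest. Named genes were the 15 higher and 15 lower with the widest gap between types that do not overlap, and Bglap and Cfd. They also held, in each of 28 lists, the members without overlap and 4 with the smallest p. Genes named outside this rule are those of the fit on station 1 and those said to be chosen after their values were seen. Also outside it are C2, C3, C1qtnf3, Bst2, Irf9, Usp18, Tapbp, Pecam1, Ptprc, Acp5, Myog, Plin1, Ibsp, Col2a1, Calcr and Cebpa. The members and lists were chosen with earlier results of these data known. With 3 colonies against 3 the number of arrays limits the precision, and the spread may include amplification. Figures were drawn with matplotlib 3.10.9.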

Additional observations from a re-analysis of the deposited data

How the results depend on the processing

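The number of probe sets called was 0 with quantile normalization, no pseudocount, no filter, a stricter filter, no intensity trend and the fluidics station as a block. It was 1 with the signals as deposited (Pla2g2a), 1 with the 6 colonies alone (a chip B probe set with no symbol), 2 with a double pseudocount and 2 with adjustment over each chip alone (Ackr4 and that probe set in each), 38 on station 1 of chip A alone and 88 with array weights, which gave both I a weight of 7.24 on chip A. Leaving out 1 colony at a time gave 0 to 1 calls, the 1 being Ackr4 without osteocalcin II, and 364 to 1244 probe sets at an unadjusted p under 0.05, the highest without both III. As a replicate block, the colony number gave 2 calls (Ackr4 and that probe set). Deviations of same-numbered colonies from their type means correlated at 0.274, -0.15 and 0.134 on chip A, so the numbers were not taken to pair colonies. The cause of these changes was not tested.

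With the signals as deposited the median difference on chip A was 0.859, and differences are given relative to the chip's median. The pseudocount of 238.8 was kept there, so the unscaled array of osteocalcin I lost fewer log2 units in dim probe sets than in bright ones. The median does not remove this, and differences in this setting depend on how bright a probe set is. Cfd then had -0.05. On chip A the station block rests on both III alone. Its differences there are those of both I and both II against the osteocalcin colonies, so it is no separate check on the station. On chip B it rests on the neither colonies, and there Gsdmd had -0.72, Lrrc8c 0.03 and Ltk 0.04. The other genes named by the rule and given above kept their direction under every alternative run, including the fits without osteocalcin III and without both III. Most list medians moved by less than the spread between colonies. That of chemokines (0.45) was 0.26 as deposited, 0.66 without a pseudocount, 0.35 with a double one, 0.37 with the stricter filter, 0.67 with the station block and 0.76 on station 1. The complement median (1.69) was 2.91 with the station block, 3.04 on station 1 and 0.06 with the stricter filter, which left out 5 of its 12 genes. As deposited, oxidative phosphorylation had 0.17, ribosomal proteins 0.41, proteases and cathepsins 0.42, endothelial genes -0.33 and adipogenic transcription factors -0.01. The last had -0.01 also with the station block and 0.03 on station 1. Endothelial genes had 0.02 with the stricter filter, TGF-beta and BMP genes -0.18 with the station block and on station 1, and Wnt genes 0.24 on station 1. With 1 colony left out at a time, the medians ran from 0.89 to 2.75 for complement (the highest without both III), 0.29 to 0.61 for chemokines, 0.22 to 0.49 for antigen presentation and -0.01 to 0.39 for adipogenic transcription factors. They ran from 0.24 to 0.47 for stromal progenitors, -0.38 to 0.13 for chondrocyte genes and -0.32 to 0.01 for endothelial genes. Dim genes such as Bglap have signals too close to background for a difference to be read.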
